A study of Mus musculus with 12 samples.

Results

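The serine and folate one-carbon enzymes were followed as 9 genes of the 56691 mouse genes counted, in CD4+ T cells that had responded to antigen under blockade of PD-L1, of Lag3 or of both. The list was given by name and holds *Phgdh*, *Psat1*, *Psph*, *Shmt1*, *Shmt2*, *Mthfd1*, *Mthfd2*, *Mthfd1l* and *Aldh1l2*. Each was matched to the count table by its Ensembl identifier. Of the 9, 8 passed the filter of at least 30 reads summed over all samples, as did 15138 genes in all. *Aldh1l2* had 0 reads in each of the 12 samples and is too low to judge.

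The samples came from Tg4 *Nr4a3*-Tocky *Il10*-GFP mice, whose T cells carry a transgenic receptor for a myelin basic protein (MBP) peptide and whose Timer protein reports transcription of *Nr4a3*. The 12 mice of all groups were given [4Y]-MBP at 4 mg/kg under the skin, the antibodies 24 h later and, after 30 min, a second peptide dose of 0.4 mg/kg, and spleens were harvested 12 h on. Groups of 3 mice received the isotype pool, anti-PD-L1, anti-Lag3 or the combination of both (CB), and each mouse gave 1 library of the 3′ ends of mRNA from sorted CD4+ cells with blue and red Timer. The sort sets a limit on the model, since only cells with recent *Nr4a3* reporter activity were kept and their number per spleen does not enter the values. The study used mice of both sexes, typically young adults, and no age is given for single samples.

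Serine and folate metabolism supply the carbon units that proliferating T cells use for purines, thymidylate and methionine. *Phgdh*, *Psat1* and *Psph* encode the consecutive enzymes that make serine from a glycolytic intermediate. Serine hydroxymethyltransferase, which is *Shmt2* in mitochondria and *Shmt1* in the cytosol, then moves a carbon from serine to tetrahydrofolate and leaves glycine. In mitochondria, *Mthfd2* oxidizes the loaded folate, *Mthfd1l* releases formate, and *Aldh1l2* can instead oxidize the unit to carbon dioxide. *Mthfd1* encodes the cytosolic enzyme that takes up formate and interconverts the loaded folates.

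The promoters of *Psat1*, *Shmt1*, *Shmt2* and *Mthfd1* are shown first because no CB sample of these genes overlapped with an isotype sample. The sequences are from RefSeq on GRCm38.p6, cover the 250 bases before an annotated start and are written 5′ to 3′ on the strand of the gene. They lie at chr19:15925060-15925309 (minus strand, the upstream of the *Psat1* starts), chr11:60811266-60811515 (*Shmt1*, minus), chr10:127522445-127522694 (*Shmt2*, minus) and chr12:76254982-76255231 (*Mthfd1*, plus). Capitals mark CCAAT read on either strand, so that ATTGG is the same letters on the other strand.
Psat1: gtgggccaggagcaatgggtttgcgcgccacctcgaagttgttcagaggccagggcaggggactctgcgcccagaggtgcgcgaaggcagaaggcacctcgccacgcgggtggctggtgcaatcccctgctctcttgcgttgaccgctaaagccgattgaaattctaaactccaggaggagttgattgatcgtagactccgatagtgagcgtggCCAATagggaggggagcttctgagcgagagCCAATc
Shmt1: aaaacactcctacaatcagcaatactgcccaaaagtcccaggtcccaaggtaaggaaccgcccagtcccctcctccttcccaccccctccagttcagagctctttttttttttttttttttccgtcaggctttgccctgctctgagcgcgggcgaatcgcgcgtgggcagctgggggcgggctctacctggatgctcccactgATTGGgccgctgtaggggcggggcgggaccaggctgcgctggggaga
Shmt2: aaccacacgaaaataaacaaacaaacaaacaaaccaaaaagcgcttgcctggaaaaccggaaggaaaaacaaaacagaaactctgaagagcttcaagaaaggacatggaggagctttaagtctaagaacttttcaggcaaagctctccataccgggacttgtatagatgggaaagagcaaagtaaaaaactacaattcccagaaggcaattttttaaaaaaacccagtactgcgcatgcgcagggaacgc
Mthfd1: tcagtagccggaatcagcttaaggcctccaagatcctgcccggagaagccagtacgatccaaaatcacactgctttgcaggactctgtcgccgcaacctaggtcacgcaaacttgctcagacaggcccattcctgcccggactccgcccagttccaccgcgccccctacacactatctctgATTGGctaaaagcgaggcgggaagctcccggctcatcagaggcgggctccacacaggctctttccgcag

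RefSeq held 9 such windows for the 8 tested members, because *Psat1* has an upstream and a downstream start. CCAAT stood in 6 windows, those of *Psat1*, *Shmt1*, *Mthfd1*, *Phgdh*, *Psph* and *Mthfd2*, against 33.8% of the 32851 windows of all genes. *Mthfd2* held it at 96, 47 and 22 bases before the start, and *Shmt1* and *Mthfd1* held it at 47 and 69 bases. The windows of *Shmt2* and *Mthfd1l* did not hold these letters. The E-box CACGTG, bound by MYC among others, stood in 0 of the 9 windows and in 6.02% of all windows. TGATGNAA, a form of the element bound by ATF4, stood in 0 of the 9 and in 3.45% of all. Both strands were searched for each, and the CCAAT search was added after the windows had been seen. A match of letters is no binding site, and none of these counts separates the members that differed from those that did not.

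The libraries held 16449370 to 22151025 reads on genes (median 19176439), and the fewest reads of a tested member in any library were the 515 of *Phgdh*. Values are CPM, the reads of a gene relative to all reads of its library, scaled by edgeR's TMM method and given as mean ± SD over 3 mice. Reads were amplified by PCR and carried no molecular identifiers, so the limit for a count of 0 covers counting error only. The 12 libraries were not balanced for sex. Reads of Y-linked genes, between 97.4 and 143 CPM, stood in samples 1 and 2 of the isotype group and in sample 1 of each other group. The remaining 7 libraries held at most 0.941 CPM of them and 237 to 491 CPM of *Xist*. The isotype group was thus the group with 2 libraries from males, and isotype sample 2 also held 11.3 CPM of *Xist*. For the tested members the values between CB and isotype are therefore also given with sex as a term, a fit added after these reads had been seen. In the other 5 contrasts that fit called 0 members, and 0% to 1.19% of all tested genes. No member was called for sex in that fit (edgeR, adjusted p 0.572 to 0.988), with log2 estimates from -0.08 (*Psph*) to 0.38 (*Phgdh*). Apart from isotype sample 2, this term marks sample 1 of each group, so sex and sample number cannot be told apart.

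The label of CD4+ T cells was checked on 7 CD4 T cell markers, none of which was at 0. Their summed level was 2120 to 2232 CPM in the isotype group and 1845 to 1935 CPM in the CB group. *Cd4* fell by 0.50 and *Cd3e* by 0.39 on the log2 scale between CB and isotype (edgeR, adjusted p = 0.00918 and 0.0401), and the other 5 did not pass the test. The summed level of 4 haemoglobin genes was 241 to 442 CPM under isotype and 149 to 198 CPM under CB, with *Hbb-bs* and *Hbb-bt* called lower. B cell, myeloid, NK cell and dendritic cell lists summed to at most 20.6 CPM in any sample, and the CD8 list, mostly *Cd8b1*, to at most 46.4 CPM. *Xcr1* of dendritic cells was at 0. *Nr4a3* itself was at 29.4 to 33.1 CPM under isotype and 13.7 to 31.4 CPM under CB (log2 fold change -0.62, edgeR adjusted p = 0.377). The part of these shifts, and of sex, in the results below was not tested beyond the fits given. In bulk samples fewer cells of a type and less RNA per cell cannot be told apart.

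**Figure D1:**
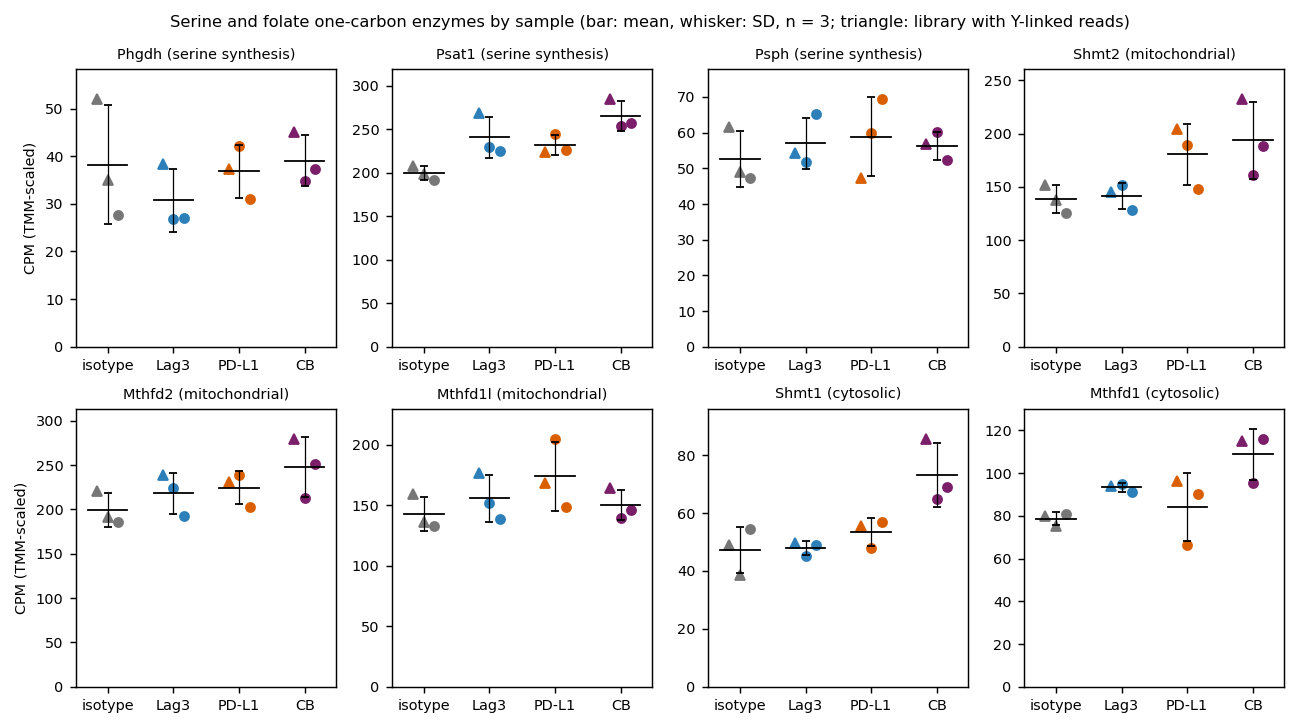
TMM-scaled CPM of the 8 tested members in each of the 12 samples, by group; bars are means and whiskers SD over 3 mice, and triangles are libraries with Y-linked reads. The CB samples of *Psat1*, *Shmt2*, *Shmt1* and *Mthfd1* all lie above the isotype samples, while those of *Phgdh*, *Psph*, *Mthfd2* and *Mthfd1l* overlap with them.

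CB against isotype asks how blocking both pathways changed the responders. *Psat1*, *Shmt2* and *Shmt1*, 3 of the 8 tested members, were higher under CB (edgeR quasi-likelihood test, Benjamini-Hochberg adjusted p under 0.05). In this comparison 4.29% of all tested genes were called, 2.33% as higher. Tested against a log2 fold change of 0.2, 0 members were called, by edgeR (adjusted p 0.0805 for *Shmt1*) or by DESeq2 with an s value under 0.005. These tests called 2.40% and 1.31% of all tested genes. The study used the same limits of 0.2, 0.05 and 0.005 to select genes. The 3 belong to serine synthesis, the mitochondrial and the cytosolic arm respectively. The fold changes of all 8 were above 0, as were those of 48.8% of all tested genes, with a median of 0.36 beside 0 over all of these, and *Phgdh*, *Psph* and *Mthfd1l* lay near 0. Groups did not overlap for 4 of the 8, the 3 called and *Mthfd1*, against 10.4% of all tested genes that did not overlap and were higher under CB.

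Among the serine synthesis genes, *Psat1* (ENSMUSG00000024640, chr19:15904678-15947337), the aminotransferase of the pathway, stood at 207, 199 and 192 CPM in isotype samples 1 to 3. In the CB samples it stood at 285, 254 and 257 CPM. Every CB sample lay above every sample of the isotype group. The means were 199 ± 7.93 and 265 ± 16.9 CPM, a log2 fold change of 0.41 (SE 0.10, edgeR adjusted p = 0.0175), or 1.33-fold. The call was lost without isotype sample 2 (0.41, adjusted p = 0.0648), isotype sample 3 (0.38, 0.0775) or CB sample 1 (0.36, 0.102). With sex as a term it was 0.45 (edgeR adjusted p = 0.00534).

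*Phgdh* (ENSMUSG00000053398, chr3:98313170-98339990), the first and committed enzyme of serine synthesis, was not called. It stood at 52.0, 34.96 and 27.6 CPM under isotype and at 45.1, 34.8 and 37.4 CPM under CB, so that the groups overlapped and isotype sample 1 was the highest of all 12. Its log2 fold change was 0.03 (95% interval -0.43 to 0.50, edgeR adjusted p = 0.999), and its sign changed when counts were scaled by their totals (-0.018). With sex as a term it was 0.18 (edgeR adjusted p = 0.797). Of the 8 members it had the widest interval. *Psph* (ENSMUSG00000029446, chr5:129765558-129787449), the phosphatase of the last step, stood at 52.6 ± 7.82 CPM under isotype and 56.4 ± 3.92 CPM under CB. Its log2 fold change was 0.10 (95% interval -0.25 to 0.45, edgeR adjusted p = 0.900), and 0.07 with sex as a term (adjusted p = 0.935). The intervals of *Phgdh* and *Psph* both include a difference of the size seen for *Psat1*. *Psph* shares 452 exonic bases in its 5′ part with *Cct6a* on the opposite strand, a gene with 88939 reads against its 13121.

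In the mitochondrial arm, *Shmt2* (ENSMUSG00000025403, chr10:127517123-127522444) stood at 152, 137 and 126 CPM under isotype. Under CB it stood at 232, 161 and 188 CPM. The lowest CB sample was close to the highest isotype sample, and the groups did not overlap. The means were 138 ± 13.1 and 194 ± 36.2 CPM, a log2 fold change of 0.49 (SE 0.14, edgeR adjusted p = 0.0395), or 1.40-fold. The call was lost with total counts in place of TMM (0.44, edgeR adjusted p = 0.0715) and with only isotype and CB in the fit (0.48, 0.0508). It was also lost without isotype sample 1 (0.55, edgeR adjusted p = 0.0516), 2 (0.48, 0.118) or 3 (0.42, 0.162) and without CB sample 1 (0.33, 0.294) or 3 (0.51, 0.0985). With sex as a term it was 0.56 (edgeR adjusted p = 0.00417).

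*Mthfd2* (ENSMUSG00000005667, chr6:83305691-83325908) stood at 221, 191 and 186 CPM under isotype and at 279, 213 and 251 CPM under CB. CB sample 2 lay below isotype sample 1. The log2 fold change of 0.31 (SE 0.12, edgeR adjusted p = 0.162) did not pass the test, whereas with sex as a term it was 0.37 with an adjusted p of 0.0463. *Mthfd1l* (ENSMUSG00000040675, chr10:3973118-4167081) stood at 143 ± 14.3 CPM under isotype and 150.1 ± 12.6 CPM under CB. Its log2 fold change was 0.07 (95% interval -0.20 to 0.34, edgeR adjusted p = 0.906), and with sex as a term it was 0.12 (adjusted p = 0.753). *Aldh1l2* (ENSMUSG00000020256, chr10:83487450-83534140) had 0 reads. A count of 0 allows up to 3 reads, which is 0.0129 CPM over the 232047713 reads of all libraries and 0.135 to 0.182 CPM in a single library. Its 3′ end shares 1056 exonic bases, chr10:83487450-83488505, with *D10Wsu102e* on the opposite strand, which had 12336 reads. Whether reads in that stretch were assigned by strand is not given in the sources used here.

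Both cytosolic genes stood apart between the groups. *Shmt1* (ENSMUSG00000020534, chr11:60788104-60811718) stood at 48.9, 38.4 and 54.4 CPM under isotype and at 85.6, 65.0 and 69.0 CPM under CB. The other 2 groups lay with isotype, between 45.2 and 56.9 CPM. The means of isotype and CB were 47.2 ± 8.10 and 73.2 ± 10.9 CPM, a log2 fold change of 0.63 (SE 0.17, edgeR adjusted p = 0.0249), or 1.55-fold. This was the largest fold change of the 8 members. The call was lost without isotype sample 1 (0.65, edgeR adjusted p = 0.0644), isotype sample 2 (0.50, 0.174), CB sample 1 (0.50, 0.183) or CB sample 3 (0.67, 0.0586). With sex as a term it was 0.64 (edgeR adjusted p = 0.0218). The 3′ end of *Shmt1* shares 184 exonic bases with *Smcr8* on the opposite strand, which had 2444 reads against its 12972.

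*Mthfd1* (ENSMUSG00000021048, chr12:76255298-76319803) stood at 80.1, 75.1 and 81.0 CPM under isotype and at 115, 95.2 and 116 CPM under CB. The isotype samples lay within a narrow range below all CB samples. The log2 fold change of 0.47 (SE 0.14, edgeR adjusted p = 0.0587) was just outside the threshold. The settings under which it passed included DESeq2's Wald test (0.46, adjusted p = 0.0313) and edgeR with no filter on low counts (0.47, 0.0434). Both called 4 members, with 6.06% and 3.96% of all genes called, and DESeq2 gave no adjusted p for 7337 of the 15138 genes. It also passed in edgeR's fit with sex as a term (0.49, adjusted p = 0.0389) and without anti-PD-L1 sample 1 (0.47, 0.0468), anti-PD-L1 sample 2 (0.47, 0.0301) or CB sample 2 (0.55, 0.0409). With sex as a term 5 members were called, *Psat1*, *Shmt2*, *Shmt1*, *Mthfd1* and *Mthfd2*, where 4.83% of all tested genes were.

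**Figure D2:**
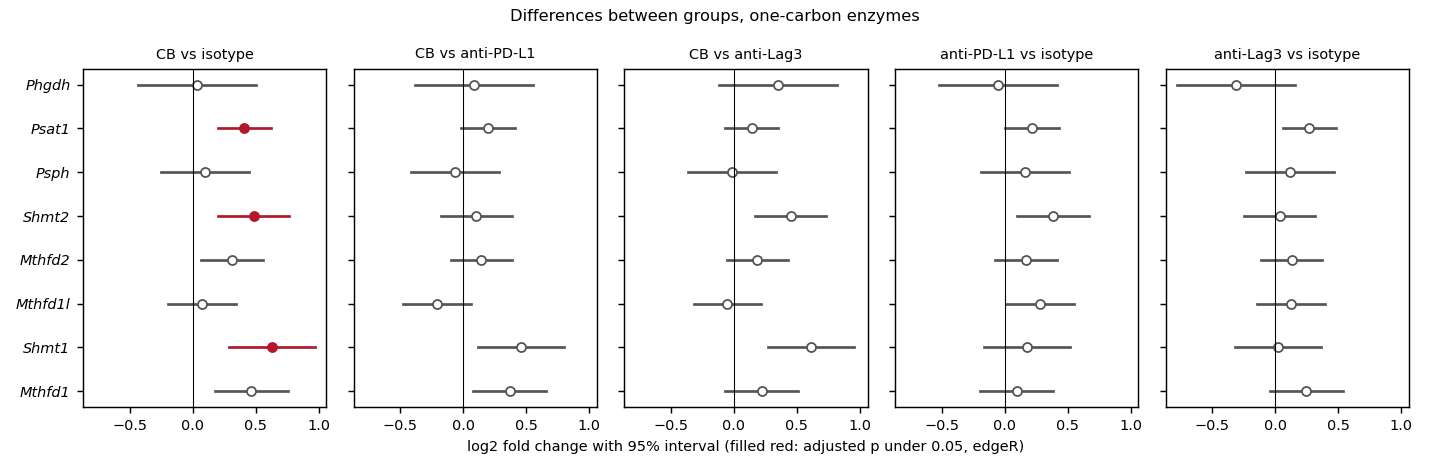
Log2 fold change of the 8 tested members with 95% intervals in 5 comparisons between groups, from edgeR's fit to all 12 samples. *Psat1*, *Shmt2* and *Shmt1*, in filled red, were called between CB and isotype, and no member was called in the other 4 comparisons.

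Each single antibody against isotype asks what blocking 1 pathway did. These comparisons share the isotype samples with each other and with CB against isotype. Under anti-PD-L1 0 members were called by edgeR, against 0.033% of all tested genes. DESeq2 called 0 members as well, and 0.37% of all tested genes. At an unadjusted p under 0.05 there were 3 members, *Shmt2*, *Mthfd1l* and *Psat1*, and 7.84% of all tested genes. *Shmt2* stood at 204, 189.5 and 148 CPM, with 2 of the 3 samples above all isotype samples. Its log2 fold change of 0.38 (SE 0.14, edgeR adjusted p = 0.485) can be set beside the 0.49 of CB. *Mthfd1l* stood at 168, 205 and 148 CPM, a log2 fold change of 0.28 (edgeR adjusted p = 0.593). For *Psat1*, the 224, 245 and 226 CPM of the anti-PD-L1 samples were all above the isotype samples (log2 fold change 0.22, edgeR adjusted p = 0.593), as was so for 5.34% of all tested genes.

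Under anti-Lag3 0 members and 0% of all tested genes were called by edgeR, and DESeq2 called 0 members and 0.0595% of these genes. At an unadjusted p under 0.05 there was 1 member, *Psat1*, among 788 genes (5.21% of those tested). *Psat1* stood at 268, 229 and 225 CPM, all above the isotype samples, with a log2 fold change of 0.27 (SE 0.10, edgeR adjusted p = 0.805). *Mthfd1* stood at 93.8, 95.1 and 91.0 CPM, also apart from isotype (log2 fold change 0.25, edgeR adjusted p = 0.805). These were the 2 members higher without overlap, against 5.25% of all tested genes. *Shmt1* and *Shmt2* had log2 fold changes of 0.02 and 0.03, with 95% intervals of -0.32 to 0.36 and -0.25 to 0.32. *Phgdh* stood at 38.3, 26.8 and 27.1 CPM, a log2 fold change of -0.31 (95% interval -0.78 to 0.15). Without isotype sample 1 it was -0.029, and with sex as a term -0.18.

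CB against each single antibody asks what the second antibody added. Against anti-Lag3 0 members were called, where 0.694% of all tested genes were, and 2 members, *Shmt1* and *Shmt2*, had an unadjusted p under 0.05, as did 9.46% of all tested genes. DESeq2 called *Shmt1* alone (adjusted p = 0.0322), with 1.85% of all tested genes called. The edgeR test with no filter called *Shmt1* and *Shmt2*, with 1.22% of all genes called. The CB samples of *Shmt1*, from 65.0 to 85.6 CPM, lay above the anti-Lag3 samples at 49.8, 45.2 and 48.9 CPM (log2 fold change 0.61, SE 0.17, edgeR adjusted p = 0.0902). *Shmt2* stood at 145, 152 and 128 CPM under anti-Lag3, below all CB samples (log2 fold change 0.45, SE 0.14, edgeR adjusted p = 0.153). *Mthfd1* did not overlap either (log2 fold change 0.22, edgeR adjusted p = 0.614), but its lowest CB sample, at 95.2 CPM, was practically level with the highest anti-Lag3 sample at 95.1 CPM. Thus 3 of the 8 members were higher without overlap, against 7.68% of all tested genes.

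Against anti-PD-L1 0 members were called, where 0.37% of all tested genes were, DESeq2 called 0, and 2 members, *Shmt1* and *Mthfd1*, had an unadjusted p under 0.05, as did 9.08% of all tested genes. The anti-PD-L1 samples of *Shmt1* stood at 55.5, 47.8 and 56.9 CPM, below all CB samples (log2 fold change 0.45, SE 0.17, edgeR adjusted p = 0.344). *Psat1* was the other member without overlap (log2 fold change 0.19, edgeR adjusted p = 0.561), against 6.94% of all tested genes. *Shmt2* differed little, with a log2 fold change of 0.10 and a 95% interval of -0.18 to 0.38. *Mthfd1l* had a mean of 174 ± 28.6 CPM under anti-PD-L1 and 150.1 ± 12.6 CPM under CB (log2 fold change -0.21, 95% interval -0.48 to 0.06).

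The interaction asks whether CB differed from the sum of both single effects on the log2 scale. It called 0 members and 0% of all tested genes with edgeR, and 0 members and 0.033% of these genes with DESeq2. At an unadjusted p under 0.05 in edgeR it had 898 genes (5.93%), of which 0 were members. The estimate was 0.43 for *Shmt1* (SE 0.24, edgeR adjusted p = 0.889) and -0.33 for *Mthfd1l* (SE 0.18, edgeR adjusted p = 0.904). It was 0.07 for *Shmt2*, -0.08 for *Psat1* and 0.12 for *Mthfd1*. The 95% interval for *Shmt1*, from -0.05 to 0.92, includes both no interaction and one larger than its difference between CB and isotype.

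CB had the highest and isotype the lowest group mean for *Shmt1*, *Shmt2*, *Psat1*, *Mthfd1* and *Mthfd2*. Group means of *Shmt1* were 47.2, 47.9, 53.4 and 73.2 CPM under isotype, anti-Lag3, anti-PD-L1 and CB, with the first 3 groups overlapping. For *Shmt2* the means were 138, 142, 181 and 194 CPM in the same order, and anti-PD-L1 and CB overlapped. For *Psat1* they were 199, 241, 232 and 265 CPM, with isotype below all other samples and both single antibodies overlapping. For *Mthfd1* they were 78.7, 93.3, 84.2 and 109 CPM, with the anti-PD-L1 samples spread from 66.2 to 96.2 CPM. The summed CPM of the members was 847 to 982 under isotype and 1022 to 1263 under CB. Both single antibodies lay between and overlapped with each, at 915 to 1064 (anti-Lag3) and 974 to 1094 (anti-PD-L1).

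By read count the members spanned the upper part of the tested genes. The mean over 12 samples was 234 CPM for *Psat1*, at the percentile of 95.8 among the tested genes, and 36.2 CPM for *Phgdh*, at the percentile of 73.2. These are reads on the 3′ end, not divided by transcript length, and whether their order is that of transcript numbers was not tested.

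**Figure D3:**
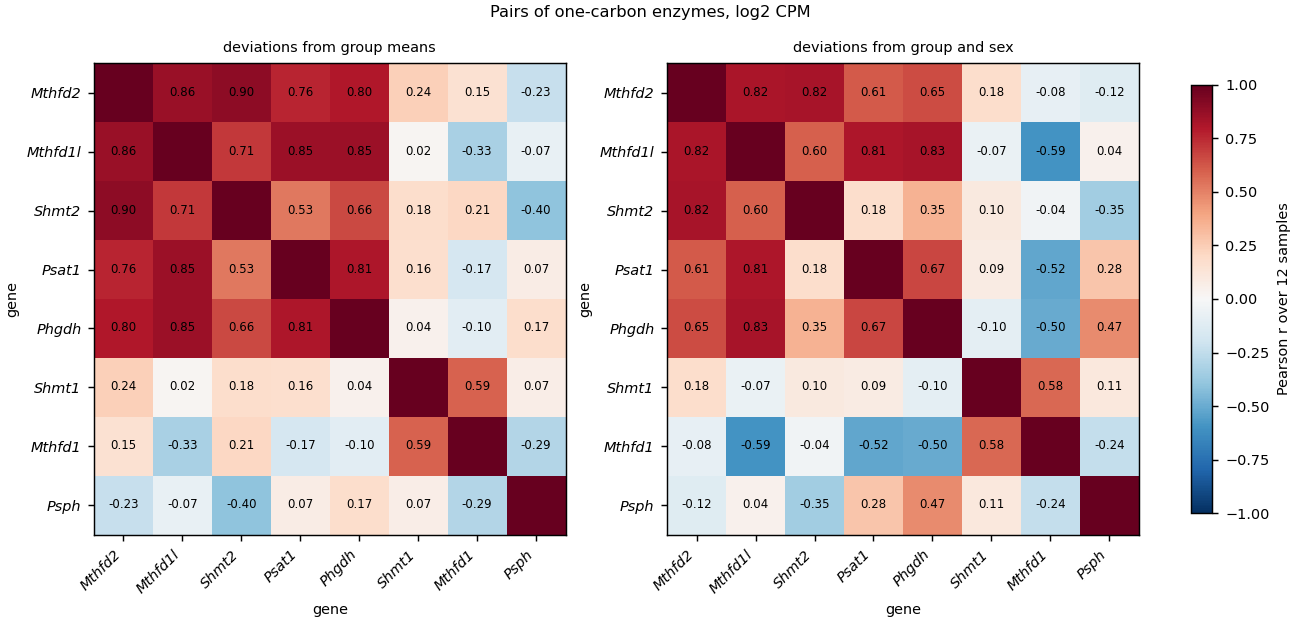
Pearson's r between pairs of the 8 tested members over 12 samples, from log2 CPM after subtracting the group means (left) and after removing group and sex (right). *Mthfd2*, *Mthfd1l*, *Shmt2*, *Psat1* and *Phgdh* form a block of 10 pairs with r of 0.53 to 0.90 on the left, and *Shmt1* pairs with *Mthfd1* at 0.59.

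Within groups the members were described as 2 sets, of 5 and of 2 genes, and *Psph* lay in neither. After subtracting the group means, *Mthfd2*, *Mthfd1l*, *Shmt2*, *Psat1* and *Phgdh* gave 10 pairs with Pearson's r from 0.53 to 0.90 (median 0.81, 12 samples). These 5 genes were grouped after their values had been seen, so the range is a description. Each of the 5 was highest in sample 1 in 3 of the 4 groups. Sample 1 of every group held Y-linked reads, and with sex also removed the 10 pairs ran from 0.18 to 0.83 (median 0.66). The lowest of these, *Shmt2* with *Psat1* (0.18), was level with the highest pair between the 2 sets, *Mthfd2* with *Shmt1* (0.18). With sex removed the 2 sets were thus not clearly apart. Cells of the 4 treatments were sorted together in batches, each treatment marked by its own CD4 antibody, and the labels do not say which samples shared a batch. The 2 cytosolic genes followed each other (r = 0.59, or 0.58 with sex removed) and not the 5, with r of -0.33 to 0.24 over the 10 pairs between the sets (-0.59 to 0.18 with sex removed). *Psph* had r of -0.40 to 0.17 with the other members, or -0.35 to 0.47 with sex removed. All pairs share the same libraries and scaling.

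Genes with the pattern most like that of a member were sought among the 10448 genes whose count averaged 30 or more. The top values of so many genes over 12 samples are high by selection. They include differences between groups and sexes, so they are a description only. For *Psat1* the highest r over the 12 samples were with *Il12rb1* (0.93), *Atp2a2* (0.93) and *Timm29* (0.92). For *Mthfd2* they were with *Desi1* (0.93), *Farsa* (0.91) and *Stip1* (0.90). For *Shmt2* they were with *St6galnac4* (0.94), *Stip1* (0.93) and *Ankrd13b* (0.91).

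The genes around the pathway were taken from 8 lists by role. Between CB and isotype, where edgeR called 4.29% of all tested genes, it called 5 genes of these lists. *Mat2a* and *Atf4* were higher, and *Mki67*, *Top2a* and *Ccna2* were lower. Genes with a mean count under 30 had very wide errors and are left out of the medians below.

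*Mat2a*, which makes S-adenosylmethionine from methionine, was the only called gene of the methionine cycle list (8 genes, 6 tested). It rose from 218 ± 23.0 CPM under isotype to 362 ± 71.8 CPM under CB, a log2 fold change of 0.74 (SE 0.13, edgeR adjusted p = 0.000774), and stayed called whichever single library was left out. The single antibodies gave 259 ± 8.50 CPM (anti-Lag3) and 274 ± 38.8 CPM (anti-PD-L1). Against anti-Lag3 the CB samples were higher without overlap (log2 fold change 0.48, edgeR adjusted p = 0.0773), as were 7.68% of all tested genes. *Mat2a* was called there by DESeq2 and by edgeR with sex as a term (0.48, adjusted p = 0.0278). The 5 genes of that list above a mean count of 30 had a median log2 fold change of -0.35, with 2 above 0 and 3 below. Of those below, *Mtr* and *Ahcy* were not called (with sex as a term -0.45 and -0.39, edgeR adjusted p = 0.301 and 0.328). *Gart* and *Atic*, which use formyl folate in purine synthesis, were both higher without overlap, as were 10.4% of all tested genes. Neither was called, with log2 fold changes of 0.38 (edgeR adjusted p = 0.0525) and 0.22 (0.397). *Gart* was called by DESeq2 and with sex as a term (0.41, adjusted p = 0.0188).

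Of the folate transport and retention list, 5 of 7 genes were tested and 0 called by edgeR or DESeq2, and 2 (*Slc19a1* and *Fpgs*) had an unadjusted p under 0.05, as did 14.9% of all tested genes. The 4 that averaged 30 reads or more had log2 fold changes of 0.00 to 0.82 (median 0.50). *Slc19a1*, the reduced folate carrier, was the only one higher without overlap, against 10.4% of all tested genes. It stood at 23.2 ± 3.04 CPM under isotype and 36.2 ± 6.66 CPM under CB (log2 fold change 0.64, edgeR adjusted p = 0.123). Of the other folate enzymes 6 of 8 were tested, with 0 called by edgeR or DESeq2 and 0 at an unadjusted p under 0.05. *Tyms*, the thymidylate synthase, had a log2 fold change of -0.12. Of glycine cleavage 3 of 4 were tested, again with 0 called by either tool and 0 at an unadjusted p under 0.05.

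Of serine transport and other uses 10 of 12 were tested and 0 called by edgeR, with 4 at an unadjusted p under 0.05 (14.9% of all tested genes). With sex as a term edgeR called *Sfxn1* (0.34, adjusted p = 0.0180). DESeq2, which called 6.06% of all tested genes, called the sideroflexins *Sfxn1*, *Sfxn2* and *Sfxn3*. These encode transporters of the mitochondrial inner membrane and did not all lie on the same side of 0. *Sfxn2* stood at 7.07 ± 2.12 CPM under isotype and 15.9 ± 0.182 CPM under CB (log2 fold change 1.17, SE 0.34, edgeR adjusted p = 0.0501). Its means under anti-Lag3 and anti-PD-L1, 15.6 ± 5.74 and 15.3 ± 3.39 CPM, were level with that of CB. *Sfxn3* stood at 20.9 ± 3.75 CPM under isotype and 10.8 ± 1.80 CPM under CB (log2 fold change -0.95, SE 0.31, edgeR adjusted p = 0.0810). *Sfxn1*, which carries serine into mitochondria, stood at 386 ± 31.9 and 472 ± 59.1 CPM (log2 fold change 0.29, edgeR adjusted p = 0.107). These 3, *Slc19a1* and *Tyms* were singled out after their values had been seen.

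*Atf4*, the transcription factor of the amino acid response, rose from 185 ± 29.2 to 273 ± 30.9 CPM (log2 fold change 0.56, SE 0.12, edgeR adjusted p = 0.00569). It was also higher under CB than under anti-Lag3, at 185 ± 18.1 CPM (log2 fold change 0.56, edgeR adjusted p = 0.0221). The former call was lost in 3 of 22 alternatives, among them the fits without isotype sample 1 (0.46, edgeR adjusted p = 0.0549) or CB sample 3 (0.46, 0.0640). The latter was lost in 6 of 22, among them the fits without anti-Lag3 sample 1 (0.56, edgeR adjusted p = 0.0749), anti-Lag3 sample 2 (0.49, 0.151) or CB sample 3 (0.46, 0.196). Of the 8 genes of that list 7 were tested, and no other was called by edgeR or DESeq2. The 6 that averaged 30 reads or more, *Atf4* included, had a median log2 fold change of -0.03, with 3 above 0 and 3 below. *Asns*, which makes asparagine, had a log2 fold change of -0.42 with an SE of 0.59.

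**Figure D4:**
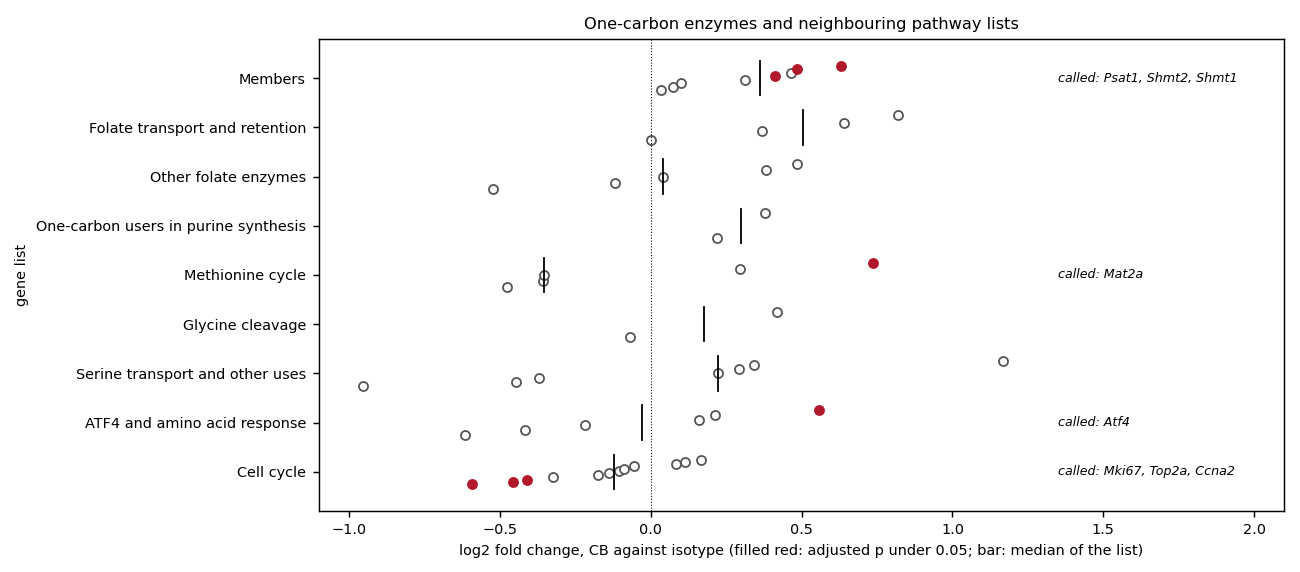
Log2 fold change between CB and isotype for the 8 tested members and for the genes of 8 pathway lists with a mean count over 30; filled red points were called by edgeR, and the black bar is the median of each list. The members all lie above 0, and the cell cycle list has 9 of 12 genes below 0.

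Of 12 cell cycle genes, all tested, 3 fell between CB and isotype with edgeR, which called 1.96% of all tested genes as lower. DESeq2, which called 3.01% as lower, also called *Mcm5* (log2 fold change -0.32, edgeR adjusted p = 0.0933). *Mki67* fell by 0.59 (SE 0.11, edgeR adjusted p = 0.0014), *Top2a* by 0.46 (SE 0.09, 0.00223) and *Ccna2* by 0.41 (SE 0.11, 0.0334) on the log2 scale. The call of *Ccna2* was lost in 6 of 22 alternatives. Among them were the fits without isotype sample 1 (-0.38, edgeR adjusted p = 0.123), isotype sample 3 (-0.40, 0.0857), CB sample 1 (-0.42, 0.0782) or CB sample 3 (-0.31, 0.242). *Top2a* lost its call in 1 of the 22 and *Mki67* in 0. The list had a median log2 fold change of -0.12, and 9 of the 12 genes were below 0, as were 49.5% of all tested genes. The higher levels of *Psat1*, *Shmt2* and *Shmt1* thus stood beside lower levels of these 3 proliferation genes in the same libraries, and the relation between them was not tested.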

How the data were processed

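QuantSeq 3′ libraries were made from the RNA of sorted responder cells of 12 mice (5 libraries with Y-linked reads). For the authors, Lexogen trimmed reads with Cutadapt 1.18, mapped them with STAR 2.6.1a to GRCm38 and counted uniquely mapped reads with featureCounts 1.6.4. The deposited table holds these raw counts per gene without normalization. The annotation release and the strand setting are not given in the sources used here. The rlog table was not used.

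Identifiers were matched to GENCODE vM21, which holds 52073 of the 56691 genes. Spike-ins (0.719 to 1.29% of counts) were left out. Libraries held 16449370 to 22151025 counts on genes. No column of samples was left unused (0). Genes with at least 30 reads in sum were tested with edgeR 4.0.16 (limma 3.58.1, R 4.3.3): TMM scaling, 1 fit of 4 group means to 12 samples without covariates, quasi-likelihood tests of 6 contrasts, Benjamini-Hochberg adjustment over the 15138 genes and a threshold of 0.05. Fold changes carry a prior count of 0.125. The fit was tested on simulated data in which only changes larger than those called for the members were planted. It therefore does not bear on changes of their size.

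All 9 members are named, and of the pathway lists each gene called in any comparison. Some genes of the lists are not reported here by name. Members, lists, tests and alternatives were chosen with earlier results of these data known. The sex term, the alternatives for pathway genes and the CCAAT search were added after seeing the data. The alternatives were edgeR with other scalings, with other filters, with a tested log2 difference above 0.2, with a block for the replicate number, with the compared groups alone and with each sample left out, and DESeq2 1.42.0, once with its plain Wald test and once with a threshold of 0.2 on the log2 fold change and an s value (ashr 2.2.63) under 0.005. Pearson's r used log2 CPM with a prior count of 0.5. No duplicated library was found. Each library is 1 mouse.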

Additional observations from a re-analysis of the deposited data

How the results depend on the processing

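Between CB and isotype 3 members were called, and 2 (*Shmt1* and *Psat1*) with total counts in place of TMM or with only the groups compared, 4 with DESeq2, with no filter on low counts or with the replicate block (*Mthfd1* in addition) and 5 with sex as a term. Beside 4.29% of all genes called at first, these settings called 4.19%, 4.62%, 6.06%, 3.96%, 5.57% and 4.83% in that order. Tests against a log2 fold change of 0.2 called 0 members, with DESeq2 and its s value and with edgeR alike (1.31% and 2.40% of all genes). Leaving out each sample in turn gave 0 to 4. Between CB and anti-Lag3, where 0 were called, DESeq2 called 1, no filter 2 and the replicate block 1 (*Shmt2*, edgeR adjusted p = 0.0444). The counts of the other 4 comparisons were 0 under every alternative run. No called estimate changed sign. Total counts turned *Phgdh* to -0.018 between CB and isotype, and the sex term turned it to 0.11 between anti-PD-L1 and isotype. Among uncalled estimates, leaving out each sample in turn moved *Phgdh* between -0.16 and 0.32 (CB against isotype), -0.027 and 0.20 (CB against anti-PD-L1) and -0.24 and 0.23 (anti-PD-L1 against isotype). For CB against anti-PD-L1 it moved *Shmt2* between -0.050 and 0.22 and *Psph* between -0.20 and 0.072, and for CB against anti-Lag3 *Psph* between -0.080 and 0.090 and *Mthfd1l* between -0.13 and 0.048. Between anti-PD-L1 and isotype, *Mthfd1* moved between -0.0092 and 0.24, and between anti-Lag3 and isotype *Shmt1* between -0.11 and 0.13 and *Shmt2* between -0.033 and 0.10. The cause was not tested. Same-numbered samples correlated at -0.06 to 0.12 over 18 pairs, with 2 over 0.1. Since the labels tie no number to a batch and not every pair was over 0.1, the numbers were not taken to pair the samples. The study sorted the 4 treatments together in batches and related a principal component largely to that sorting. If the numbers follow those batches, the fits without a block ignore a pairing. Sample 1 of every group also held Y-linked reads. The data do hold a hint of shared numbers, as 8 of 12 samples were closest to their own number and the correlation was above 0 in all 6 pairs of number 1 and all 6 of number 3, against 1 of 6 of number 2. With the replicate block *Shmt1*, *Shmt2*, *Psat1* and *Mthfd1* had log2 fold changes of 0.64, 0.48, 0.41 and 0.46 between CB and isotype (edgeR adjusted p = 0.0131, 0.00729, 0.00792 and 0.0378). It also called *Gart* (0.37, adjusted p = 0.0319), *Sfxn2* (1.17, 0.0385) and *Mcm5* (-0.33, 0.0325) there, and *Mat2a* against anti-Lag3 (0.46, 0.00783) and anti-PD-L1 (0.40, 0.0424). The 95% intervals in the report give the precision that 3 mice a group allowed.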
